A study of Homo sapiens with 8 samples.

Results

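The interaction of vector and doxycycline was examined on all 8 arrays of the series: it asks which genes responded differently to doxycycline when the inducible vector carried ΔNp63α than when it was empty. Each array was an Illumina bead array hybridised with cRNA from SUM159 trailblazer cells, an invasive subset of the SUM159 human breast cancer line. The 4 groups had 2 arrays each: empty pLIX vector without doxycycline (EV none), empty pLIX vector with 1 ug/ml doxycycline (EV dox), ΔNP63α-V5 pLIX without doxycycline (p63 none, or uninduced) and ΔNP63α-V5 pLIX with 1 ug/ml doxycycline (p63 dox, or induced). All groups shared the parental cells, the vector backbone and the time point of 5 days, and the titles call the lines SUM159T-WT and SUM159T-P63-V5. Whether each line was a clone or a pool, and whether replicates came from separate cultures, is not given in the sources used here, so p-values measure the spread between these arrays, which may be technical. The interaction of a gene is its log2 intensity difference between p63 dox and p63 none, minus its difference between EV dox and EV none.

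ΔNp63α is the form of the transcription factor p63 that lacks the N-terminal activation domain and predominates in basal epithelial cells. It maintains the basal layer of stratified epithelia, where it acts on adhesion genes, keratins and signalling genes as an activator or a repressor. Doxycycline is not inert in mammalian cells, because tetracyclines also inhibit protein synthesis on the mitochondrial ribosome. The empty vector line measures that part of a response, and the interaction subtracts it.

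TP63 was the symbol of 0 probes, and the induced gene itself could not be read. Rank correlations over the genes tested were 0.985 to 0.988 within groups and 0.97 to 0.989 across them. Of 35 mesenchymal genes with a probe, 23 were above the background level on all 8 arrays, VIM (log2 13.62 to 14.06) and CDH2 (10.88 to 11.52) among them, and 5 on none (CDH11, SNAI1, THY1, LUM and FBN1). Of 31 epithelial identity genes, 7 were above it on all 8 arrays and 12 on none, with CDH1 among the latter and the simple-epithelial keratins KRT7 (10.65 to 11.03), KRT8 (8.42 to 9.34) and KRT18 (7.79 to 8.55) among the former. The basal keratin KRT5, the leukocyte marker PTPRC and the endothelial marker PECAM1 were above it on 0 of 8. The background level corresponds to a log2 intensity of 6.12 to 6.13. On bulk RNA, fewer expressing cells and less RNA per cell cannot be told apart.

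The largest positive interactions were those of IL1A, a cytokine (2.79), GAL, a neuropeptide (2.44), and ITGA2, an integrin subunit (2.06). The largest negative were those of SCG5, a secretory chaperone (-2.02), CDH6, a cadherin (-1.80), and S100A4, a calcium-binding protein (-1.78). Of 12385 genes tested, 90 had an interaction at a limma adjusted p under 0.05, which is 0.727%. Of these, 56 were positive (0.452%) and 34 negative (0.275%), and 35 of the former and 20 of the latter exceeded 1 on the log2 scale. Sizes ran from 0.70 to 2.79 with a median of 1.11 among the positive genes, and from -0.71 to -2.02 with a median of -1.10 among the negative. The median over all genes was 0.00. Leaving out 1 array leaves 1 in its group and raises the error, so calls lost here and below need not mark an influential array. The number called varied between such fits. It rose above 90 without EV dox replicate 1 and fell below 90 when any other array was left out. Without any 1 array in turn, 29 of the 90 genes stayed called each time.

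Except in PER2 and SOCS2, most of each called interaction came from the ΔNp63α arm. The 56 positive genes had a median doxycycline difference of 1.08 in that line and of -0.06 in the empty vector, where they ranged from -0.51 to 0.43. The 34 negative genes had medians of -0.86 and 0.14, with an empty-vector range of -0.02 to 0.59. Both induced arrays lay above the other 6 arrays for 56 of 56 positive genes, which held for 10.3% of all genes, and below them for 34 of 34 negative genes, against 10.1% of all genes. The called genes were selected on these same arrays, which favours such separation, so these counts are not separate support. The same fit called 338 genes (2.73%) for doxycycline within the ΔNp63α line and 0 (0%) within the empty vector, where 543 had an unadjusted p under 0.05 and 619 would by chance. These comparisons share arrays with the interaction. Between the lines, 6 genes (0.0484%), all lower in the ΔNp63α line, were called without doxycycline, and 1207 (9.75%) with it, 575 higher (4.64%) and 632 lower (5.10%). Of the 90 genes, 1 was called in the former comparison (SERPINB5) and all 90 in the latter. The latter uses arrays on which the 90 were selected. The interaction also carries a larger error, with a median SE of 0.163 against 0.115 for a difference within a line.

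**Figure D1:**
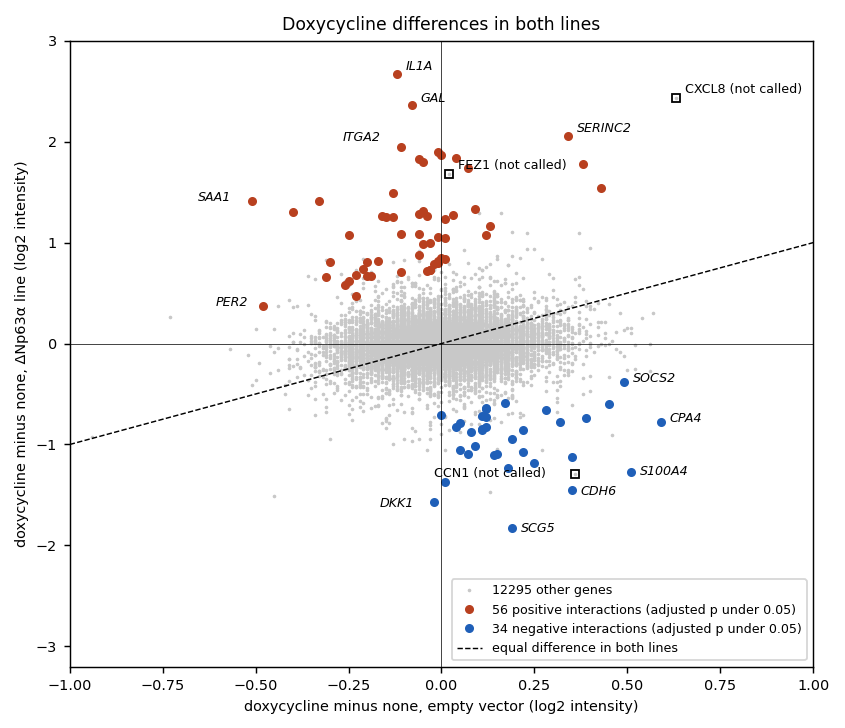
Doxycycline difference (log2 intensity) in the empty-vector line on the horizontal axis and in the ΔNp63α line on the vertical axis, 1 point per gene (12385 genes). The 56 positive and 34 negative interactions lie above and below the dashed line of equal differences, and the scales of the axes differ. CXCL8, FEZ1 and CCN1 (squares) were not called.

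Of the interleukin-1 response, the ligand IL1A, the acute-phase gene SAA1 and SOD2 were called positive. IL1A (probe ILMN_1658483), which encodes the alarm cytokine interleukin-1α, read 7.44 and 7.19 on the EV none arrays, 7.27 and 7.12 on EV dox, 6.45 and 6.69 on p63 none and 9.07 and 9.41 on p63 dox. Both induced arrays were above all others, and the uninduced arrays of the same line were the lowest. Its interaction was 2.79 ± 0.20 (SE; limma adjusted p = 1.26e-04), the largest of all genes. SAA1 (ILMN_2304512), an acute-phase protein made in response to inflammatory cytokines, read 7.44 and 7.63 on EV none, 6.96 and 7.10 on EV dox, 7.48 and 7.72 on p63 none and 9.10 and 8.91 on p63 dox. Its 2 arms ran in opposite directions, 1.41 ± 0.12 in the ΔNp63α line and -0.51 ± 0.12 in the empty vector, so that the latter made up 26.5% of an interaction of 1.91 ± 0.18 (limma adjusted p = 3.75e-04). Other SAA1 probes read 1.23 ± 0.18 and 0.08 ± 0.16, and SAA1 has a near-identical paralog that probes may not separate. SOD2, the mitochondrial superoxide dismutase and a classical NF-κB target, had an interaction of 1.04 ± 0.14 and read 1.35 ± 0.17 and 0.41 ± 0.16 on its other probes. Its call was lost without EV none replicate 2 (0.99).

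Over the IL-1 and NF-κB list, 3 of 22 measured genes were called positive (13.6%, against 0.727% of all genes) and 0 negative, and 17 of 22 values were above 0. The list median was 0.24, or 0.15 with no filter on dim probes, and the range -0.34 to 2.79. The same 0.727% is the comparison for the counts of the lists below, and the all-gene median of 0.00 for their signs. All lists were chosen with earlier results of these data known, so their shares and signs describe the members and are not separate support. The interleukin-1 receptor IL1R1 read 0.00, the cytokine IL6 0.05 and the feedback inhibitor NFKBIA 0.44, none of which passed. IL1B (ILMN_1775501), the second interleukin-1 ligand, missed the threshold at 1.20 ± 0.24 (limma adjusted p = 0.0520). It read between 5.87 and 6.12 on the 6 other arrays, below background on each, against 6.98 and 7.60 on the induced arrays. IL1B thus passed the filter, and entered the list counts, through the induced group alone. It was called without p63 dox replicate 1 (1.51).

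CXCL8 (ILMN_2184373), a neutrophil-attracting chemokine, had the largest value that was not called, 1.80 ± 0.49 (limma adjusted p = 0.172). It read 10.53 and 10.34 on EV none, 10.59 and 11.54 on EV dox, 7.56 and 8.79 on p63 none and 10.48 and 10.74 on p63 dox. The uninduced ΔNp63α arrays stood apart here, and the induced arrays lay within the range of the empty vector. CXCL8 was called without p63 none replicate 2 (2.42). IL1RL1, the receptor of interleukin-33, read 1.72 ± 0.48 and was called without EV dox replicate 1 (2.29) or p63 dox replicate 1 (2.22), with EV dox arrays at 8.87 and 7.74.

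Integrins that bind basement membrane and collagen formed the next group. ITGA2 (ILMN_1665792), the collagen-binding α2 subunit, read 8.97 and 8.95 on EV none, 8.86 and 8.84 on EV dox, 8.47 and 8.82 on p63 none and 10.70 and 10.49 on p63 dox. The interaction was 2.06 ± 0.18 (limma adjusted p = 3.16e-04). ITGB4 (ILMN_2334210), the β4 subunit that anchors hemidesmosomes to laminin, read 6.17 and 6.18 on EV none, 6.20 and 6.03 on EV dox, 6.29 and 6.14 on p63 none and 7.97 and 8.12 on p63 dox. It was near background on the 6 other arrays and clear of it on both induced arrays, with an interaction of 1.89 ± 0.16 (limma adjusted p = 2.07e-04) and of 1.04 ± 0.20 on a dimmer probe. ITGA3, the laminin-binding α3 subunit, had 1.14 ± 0.19 (adjusted p = 0.0166) and 0.46 ± 0.15 on a dimmer probe. The ITGA3 call was lost without EV none replicate 2 (0.97), EV dox replicate 2 (1.07), p63 none replicate 1 (1.02) or p63 dox replicate 2 (1.15).

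These 3 were the called members of the hemidesmosome and laminin list, in which 13 genes were measured (23.1%, against 0.727% of all genes). In the list 0 genes were called negative, the median was 0.41 and the range 0.00 to 2.06. ITGA6, the partner of β4 integrin, read 0.60 and the laminin-332 chain LAMB3 0.50 without passing, and ITGB1, the common β1 subunit, read 0.00. The cytolinker PLEC, which ties β4 integrin to keratin filaments, read 0.12.

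**Figure D2:**
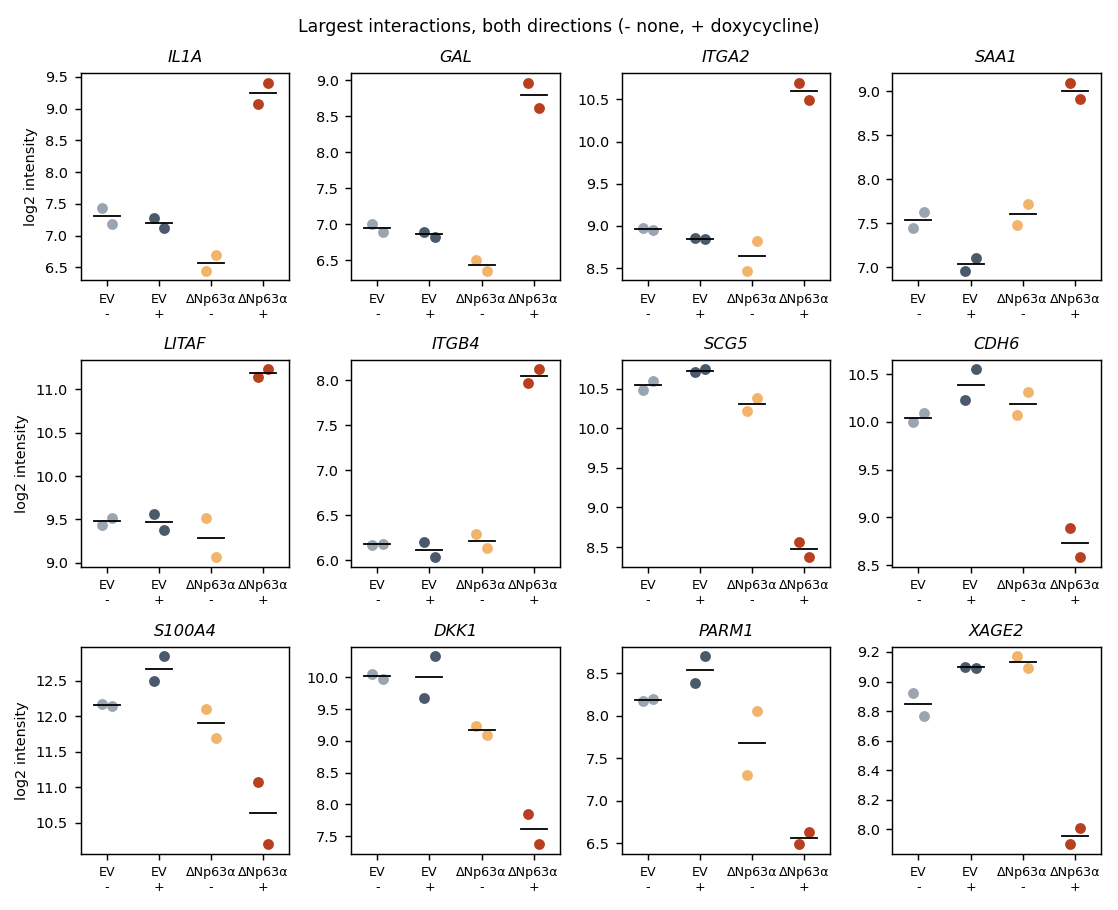
Log2 intensity of the 6 largest positive and 6 largest negative interactions on each array (points; bars, group means; 2 arrays per group; EV, empty vector; minus and plus, without and with doxycycline; axes differ between panels). In each panel both p63 dox arrays lie outside the range of the other 6.

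Of 25 measured genes reported elsewhere as p63 targets, 5 were called positive (20.0%, against 0.727% of all genes) and 0 negative. Values were above 0 for 23 of them, and the median was 0.46, or 0.27 with no filter on dim probes. The 5 called genes were ITGB4 and ITGA3, S100A2, SERPINB5 and HES1, so the integrins also counted above are shared. The list does not separate reported activation from repression. S100A2 (ILMN_1725852), a calcium-binding protein of basal keratinocytes, read 7.07 and 7.42 on EV none, 6.92 and 6.91 on EV dox, 6.98 and 6.59 on p63 none and 8.49 and 7.91 on p63 dox, for an interaction of 1.75 ± 0.27 (limma adjusted p = 0.0106). HES1, a repressor transcribed downstream of Notch, had 1.01 ± 0.15 (adjusted p = 0.0106), of which 19.8% came from a lower value in EV dox. Without EV none replicate 2 or EV dox replicate 2 the calls were lost for S100A2 (1.57 and 1.74) and HES1 (0.93 and 0.96).

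SERPINB5 (ILMN_1793888), the serpin maspin of mammary basal cells, was the 1 positive gene with p63 none as the group farthest from the others. It read 7.69 and 7.69 on EV none, 7.71 and 7.72 on EV dox, 6.99 and 6.96 on p63 none and 8.18 and 8.31 on p63 dox. Both uninduced arrays lay below all 6 others, as for 3.95% of all genes. The same held for many other positive genes, among them IL1A, GAL, ITGA2, KRT75, SLC2A9 and HES1. Of 56 positive genes, 36 had a lower mean in p63 none than in EV none. A low p63 none mean or a high EV none mean raises the interaction, so selection on it favours this order. No share over all genes is given for it, so the count is not separate support for a low starting level. For SERPINB5 the difference between p63 none and EV none was -0.71 (limma adjusted p = 0.0335). The induced group passed the empty vector in the other direction by 0.53. The SERPINB5 interaction of 1.24 ± 0.14 (adjusted p = 0.00124) therefore spans a low starting level and a rise above the empty vector. It was the 1 called gene of 18 measured proteases and serpins (5.56%, median 0.04), in which the plasminogen activator PLAT read 0.88 and the inhibitor TIMP2 -0.63 without passing.

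Of 27 basal and squamous keratinocyte genes with a probe, 11 were measured. KRT75 and S100A2 were called positive (18.2%, against 0.727% of all genes) and 0 negative, with a median of 0.21. A probe could pass the filter through any single group, and with no filter on dim probes the median was 0.04. KRT75 (ILMN_1721247), a keratin of hair follicle sheath cells, read 6.49 and 6.56 on EV none, 6.53 and 6.53 on EV dox, 6.20 and 6.20 on p63 none and 7.84 and 8.30 on p63 dox. The empty-vector difference was 0.00 ± 0.14, and the interaction was 1.87 ± 0.19 (limma adjusted p = 8.30e-04). KRT14 read 0.11 and SFN, the keratinocyte 14-3-3 protein, 0.22, neither of which passed. KRT14 was above background on 2 of 8 arrays (log2 5.85 to 6.30), so its value is a reading near the floor. Of 15 measured Notch genes HES1 was the 1 called (6.67%, median 0.09), while the ligand JAG1 read 0.46 and the receptor NOTCH1 0.30. Of 11 measured epithelial identity genes 0 were called and 0 had an unadjusted p under 0.05 (range -0.34 to 0.24, median -0.12).

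The remaining large positive interactions covered peptide signalling, membrane proteins and metabolism. GAL (ILMN_1682015), which encodes the neuropeptide galanin, read 7.0 and 6.89 on EV none, 6.90 and 6.83 on EV dox, 6.51 and 6.36 on p63 none and 8.97 and 8.62 on p63 dox, an interaction of 2.44 ± 0.18 (limma adjusted p = 1.26e-04). LITAF, a regulator of endosomal sorting and TNF expression, had 1.91 ± 0.20, with 9.38 to 9.56 on the empty-vector arrays and 11.14 and 11.23 on the induced arrays. SAT1, the rate-limiting enzyme of polyamine catabolism, had 1.70 ± 0.21, of which 23.5% came from the empty vector, where doxycycline gave -0.40 ± 0.15. SERINC2 had 1.72 ± 0.16, smaller than its difference within the ΔNp63α line (2.06 ± 0.11) because the empty vector gave 0.34 ± 0.11 the same way. The urate transporter SLC2A9 had 1.80 ± 0.19 and was not above background on either uninduced array, which makes the rise in that line at least 3.30-fold. A further SLC2A9 probe read 0.28 ± 0.15.

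AKR1C2 (1.85 ± 0.21, limma adjusted p = 0.00124) and AKR1C3 (1.24 ± 0.17, adjusted p = 0.00496), aldo-keto reductases that act on steroids and prostaglandins, were the 2 called of 15 measured NRF2 and AKR genes (13.3%). The list median was -0.04. Classical NRF2 targets in it read -0.12 for NQO1, 0.40 for HMOX1 and 0.26 for GCLM, and none of these passed. AKR1C4, outside the list, was also called at 1.11 ± 0.18 (limma adjusted p = 0.0136), with an empty-vector rise of 0.43 ± 0.13. The AKR1C genes are close paralogs whose probes may share signal. AKR1C2 read 8.79 and 8.69 on EV none, 8.63 and 8.75 on EV dox, 8.66 and 8.16 on p63 none and 10.28 and 10.14 on p63 dox. ABCA1, the cholesterol exporter, had 0.99 ± 0.15 (adjusted p = 0.00900) as the 1 called of 24 cholesterol genes (4.17%, median -0.06). Its uninduced arrays (8.02 and 8.0) already lay above EV none (7.39 and 7.44), and the ABCA1 call was lost without EV none replicate 1 (1.01) or replicate 2 (0.96).

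The RefSeq promoter windows (GRCh38.p14, 250 bases before to 50 after the annotated start) of 4 positive genes are given here because they hold matches to motifs of factors tied to p63 or to inflammatory signalling. Capitals mark TGANTCA, a loose form of the AP-1 motif in which N is any base, in IL1A (chr2:112784444-112784743, minus strand), S100A2 (chr1:153565795-153566094, minus strand) and SERPINB5 (chr18:63476708-63477007, plus strand). The SERPINB5 match reads TGAATCA. In ACTA2 (chr10:88991288-88991587, minus strand) they mark the p53-family half-site.
IL1A: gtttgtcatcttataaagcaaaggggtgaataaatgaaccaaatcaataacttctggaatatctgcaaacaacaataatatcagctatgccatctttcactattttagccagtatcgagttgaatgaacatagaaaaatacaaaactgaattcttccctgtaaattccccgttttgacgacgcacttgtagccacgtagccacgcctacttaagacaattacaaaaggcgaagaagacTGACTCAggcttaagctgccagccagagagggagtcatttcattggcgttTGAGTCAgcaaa
S100A2: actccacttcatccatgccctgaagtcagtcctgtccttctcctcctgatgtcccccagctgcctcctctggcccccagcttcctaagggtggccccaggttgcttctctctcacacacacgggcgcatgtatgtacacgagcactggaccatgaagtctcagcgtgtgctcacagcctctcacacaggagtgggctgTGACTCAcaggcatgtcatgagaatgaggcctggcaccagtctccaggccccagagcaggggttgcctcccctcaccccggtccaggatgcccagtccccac
SERPINB5: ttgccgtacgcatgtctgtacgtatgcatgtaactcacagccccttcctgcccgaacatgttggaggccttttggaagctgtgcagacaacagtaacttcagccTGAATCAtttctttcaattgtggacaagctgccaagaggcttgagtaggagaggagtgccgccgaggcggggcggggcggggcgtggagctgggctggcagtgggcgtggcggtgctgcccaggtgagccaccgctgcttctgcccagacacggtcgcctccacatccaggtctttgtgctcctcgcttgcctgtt
ACTA2: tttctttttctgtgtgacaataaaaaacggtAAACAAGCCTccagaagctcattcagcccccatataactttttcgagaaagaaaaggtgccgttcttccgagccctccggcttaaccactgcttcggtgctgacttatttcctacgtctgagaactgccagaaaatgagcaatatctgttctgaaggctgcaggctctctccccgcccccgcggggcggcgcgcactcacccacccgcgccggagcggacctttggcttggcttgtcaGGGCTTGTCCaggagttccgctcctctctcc
Windows were found for 45 positive and 27 negative genes, and matches were sought on both strands. TGANTCA stood in 3 of 45 (6.67%) and 4 of 27 (14.8%), against 4.66% of the 9851 promoters of genes tested and 7.76% of all 27305 promoters. The p53-family half-site stood in 6 of 45 (13.3%) and 1 of 27 (3.70%), against 5.42% and 6.54%. GGAATG, the TEAD motif, stood in 2 of 45 (4.44%) and 7 of 27 (25.9%), against 11% and 14%, and the NF-κB consensus in 4 of 45 (8.89%) and 5 of 27 (18.5%), against 12.6% and 10.8%. A half-site can overlap other motifs, and these matches describe letters, not binding.

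The negative interactions were led by SCG5 (ILMN_2065773), a chaperone of prohormone convertase. It read 10.48 and 10.60 on EV none, 10.71 and 10.74 on EV dox, 10.22 and 10.38 on p63 none and 8.57 and 8.37 on p63 dox. Both induced arrays lay far below the rest, and the interaction was -2.02 ± 0.16 (limma adjusted p = 1.50e-04). CDH6 (ILMN_1766675), a mesenchymal cadherin, read 10.00 and 10.09 on EV none, 10.23 and 10.55 on EV dox, 10.07 and 10.31 on p63 none and 8.89 and 8.58 on p63 dox. Its interaction was -1.80 ± 0.20 (adjusted p = 0.00124), of which 19.3% came from a higher value in EV dox, and a far dimmer probe read -0.20 ± 0.17.

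Mesenchymal-state genes were mostly below 0. Of 28 measured, 4 were called negative and 1 positive (17.9% in all, against 0.727% of all genes). Values were below 0 for 21, and the median was -0.38. S100A4 (ILMN_1688780), a calcium-binding protein of motile cells, read 12.17 and 12.14 on EV none, 12.49 and 12.84 on EV dox, 12.10 and 11.70 on p63 none and 11.07 and 10.20 on p63 dox. The empty vector gave 0.51 ± 0.23 and the ΔNp63α line -1.27 ± 0.23, so 28.8% of the interaction of -1.78 ± 0.33 (limma adjusted p = 0.0335) came from the empty vector. PDGFRB, a growth factor receptor of mesenchymal cells, had -0.96 ± 0.13 (adjusted p = 0.00602) with replicates that nearly coincided (8.37 and 8.38 on p63 none, 7.53 and 7.55 on p63 dox). PRRX2, a mesenchymal homeobox factor, had -1.16 ± 0.22 (adjusted p = 0.0423). The fibrillar collagen COL3A1, named to complete the count, had -0.87 ± 0.17. ACTA2, an actin of smooth muscle that myoepithelial cells also express, went the other way at 1.33 ± 0.21 (adjusted p = 0.0120).

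VIM read -0.13, ZEB1 -0.22, ZEB2 0.04 and SNAI2 0.28, and none passed. Calls were lost for S100A4 without EV none replicate 1 (-1.79), EV none replicate 2 (-1.77), EV dox replicate 2 (-1.61) or p63 none replicate 1 (-1.58). They were lost for ACTA2 without EV none replicate 1 (1.30), EV none replicate 2 (1.36) or EV dox replicate 2 (1.21). PRRX2 was called without EV dox replicate 1 alone of the 8 arrays left out, with values from -0.92 to -1.39.

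Secreted regulators of Wnt and BMP signalling were among the negative genes. DKK1 (ILMN_1773337), a secreted Wnt antagonist, read 10.06 and 9.97 on EV none, 9.67 and 10.33 on EV dox, 9.24 and 9.09 on p63 none and 7.84 and 7.37 on p63 dox. The uninduced arrays were already lower than the empty vector, and the interaction was -1.55 ± 0.28 (limma adjusted p = 0.0311), with -0.11 ± 0.19 on a far dimmer probe. DKK1 was the 1 called of 23 Wnt genes (4.35%, median -0.05). Its call was lost without EV none replicate 1 (-1.59), EV none replicate 2 (-1.50), EV dox replicate 2 (-1.22), p63 none replicate 1 (-1.47), p63 none replicate 2 (-1.62) or p63 dox replicate 2 (-1.31). CCN4, a matricellular protein induced by Wnt, had -1.24 ± 0.18 (adjusted p = 0.00602) and -0.34 ± 0.18 on a dimmer probe, and was not called without EV none replicate 2 (-1.14).

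FSTL1 (ILMN_2201678), a secreted follistatin-like glycoprotein, read 9.67 and 9.54 on EV none, 9.66 and 9.57 on EV dox, 9.52 and 9.68 on p63 none and 8.25 and 8.19 on p63 dox. The other 6 arrays lay within a narrow band, and the interaction of -1.38 ± 0.15 (limma adjusted p = 0.00109) owed 0.507% to the empty vector. FSTL1 was the 1 called of 13 BMP and ID genes (7.69%, median -0.07). ID1, a BMP-induced inhibitor of differentiation, read 1.13 ± 0.29 without passing (adjusted p = 0.135), and the mean of its kept probes read 0.51. PLPP3, a lipid phosphatase, was the 1 called of 9 trailblazer-associated genes (11.1%, median -0.15) at -1.14 ± 0.16 (adjusted p = 0.00596), with -0.20 ± 0.17 on a dimmer probe and no call without EV none replicate 2 (-1.04).

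Further negative genes were XAGE2, a cancer-testis antigen of a family with similar members, at -1.43 ± 0.15, PLAC8 at -1.40 ± 0.19, PARM1 at -1.48 ± 0.28, the carboxypeptidase CPA4 at -1.37 ± 0.26, NREP at -1.29 ± 0.24 and TENT5B at -1.24 ± 0.17. PLAC8 had -1.57 ± 0.16 on a further probe and was not called without EV none replicate 1 (-1.38). PARM1 was not called without EV none replicate 1 (-1.47), EV none replicate 2 (-1.49), EV dox replicate 2 (-1.32), p63 dox replicate 1 (-1.41) or p63 dox replicate 2 (-1.55). NREP was not called without EV none replicate 1 (-1.36), EV none replicate 2 (-1.22), EV dox replicate 2 (-1.17), p63 none replicate 1 (-1.09) or p63 dox replicate 2 (-1.05). CPA4 was called only without EV dox replicate 1 or p63 none replicate 2 among the arrays left out, with values from -1.06 to -1.67.

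YAP and TEAD targets and TGF-β response genes had 0 calls among 23 and 18 measured, while 8 and 5 had an unadjusted p under 0.05 in the limma fit, as did 1054 of all 12385 genes (8.51%). Of the 23, 18 were below 0 (median -0.17), and of the 18, 12 were (median -0.18). CCN1, a matricellular YAP target, read -1.66 ± 0.41 (limma adjusted p = 0.124) and its relative CCN2 -1.19 ± 0.28, which did not pass either. CCN1 read 10.48 and 10.13 on EV none, 10.80 and 10.54 on EV dox, 10.15 and 9.47 on p63 none and 9.04 and 7.99 on p63 dox. Both ΔNp63α groups were spread, and CCN1 was called without p63 dox replicate 1 (-2.18). FAM13B fell within the ΔNp63α line by 1.51 but also read -0.45 ± 0.19 in the empty vector, which left an interaction of -1.06 ± 0.27 that did not pass (adjusted p = 0.127) and that was called without p63 dox replicate 1 (-1.37).

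FEZ1 (ILMN_1779071), a kinesin adaptor of axons, resembled CXCL8. It read 10.86 and 10.50 on EV none, 10.88 and 10.53 on EV dox, 9.18 and 8.10 on p63 none and 10.63 and 10.01 on p63 dox. The uninduced ΔNp63α arrays were -2.04 below EV none (limma adjusted p = 0.0411), and induction brought the level to within 0.38 of the empty vector with doxycycline (-0.38). The interaction of 1.66 ± 0.42 did not pass (adjusted p = 0.126) and was called without p63 none replicate 1 (2.20).

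**Figure D3:**
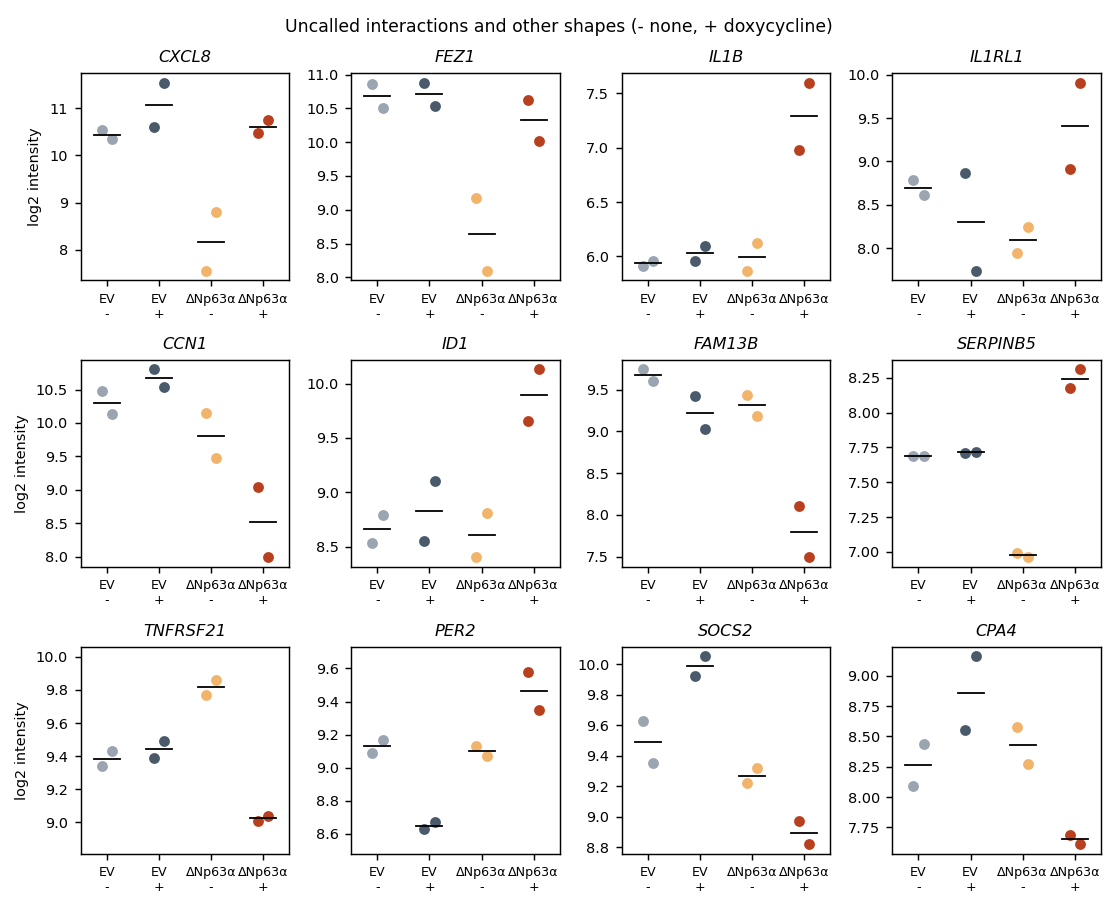
Log2 intensity on each array of 7 genes whose interaction was not called (CXCL8 to FAM13B) and of 5 called genes in which a group other than p63 dox stood apart or the empty vector moved (SERPINB5 to CPA4; points, arrays; bars, means; axes differ between panels). The p63 none arrays are the low group for CXCL8 and FEZ1, and the EV dox arrays are the high group for SOCS2.

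For 54 of 56 positive and 32 of 34 negative genes, p63 dox was the group whose mean lay farthest from the mean of the other 3, compared with 36.8% of all genes. Selection on the interaction used these same arrays and favours a group standing apart. The exceptions numbered 4. SERPINB5 is described above. TNFRSF21, a death receptor, had p63 none as the odd group, above all 6 other arrays (as for 5.40% of all genes), at 9.77 and 9.86 against 9.34 to 9.49 in the empty vector and 9.01 and 9.04 on induction (-0.85 ± 0.14, limma adjusted p = 0.0188). In PER2, a repressor of the circadian clock, and SOCS2, an inhibitor of cytokine receptor signalling, EV dox was the odd group. PER2 read 9.09 and 9.17 on EV none and 8.63 and 8.67 on EV dox, and then 9.13 and 9.07 on p63 none and 9.58 and 9.35 on p63 dox. SOCS2 read 9.63 and 9.35 on EV none and 9.92 and 10.05 on EV dox, and then 9.22 and 9.32 on p63 none and 8.97 and 8.82 on p63 dox.

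For PER2 (0.85 ± 0.15) and SOCS2 (-0.87 ± 0.17) alike, 56.6% of the interaction came from the empty vector. Together with CPA4 (43.2%, empty vector 0.59 ± 0.19 and ΔNp63α line -0.78 ± 0.19), these were the 3 called genes that did not pass within the ΔNp63α line. The empty-vector differences of these genes did not pass either. SOCS2 was not called in any of the 8 fits that left out 1 array (-0.73 to -1.01). PER2 kept it only without p63 dox replicate 2 and read 0.74 to 0.96 over the 8, and TNFRSF21 kept it only without EV dox replicate 1 and read -0.79 to -0.90. Over all 90 genes, the empty vector made up more than 25% of the interaction for 8 positive and 7 negative genes. The arms had opposite signs in 43 of 56 and 33 of 34 genes, which selection on their difference favours.

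**Figure D4:**
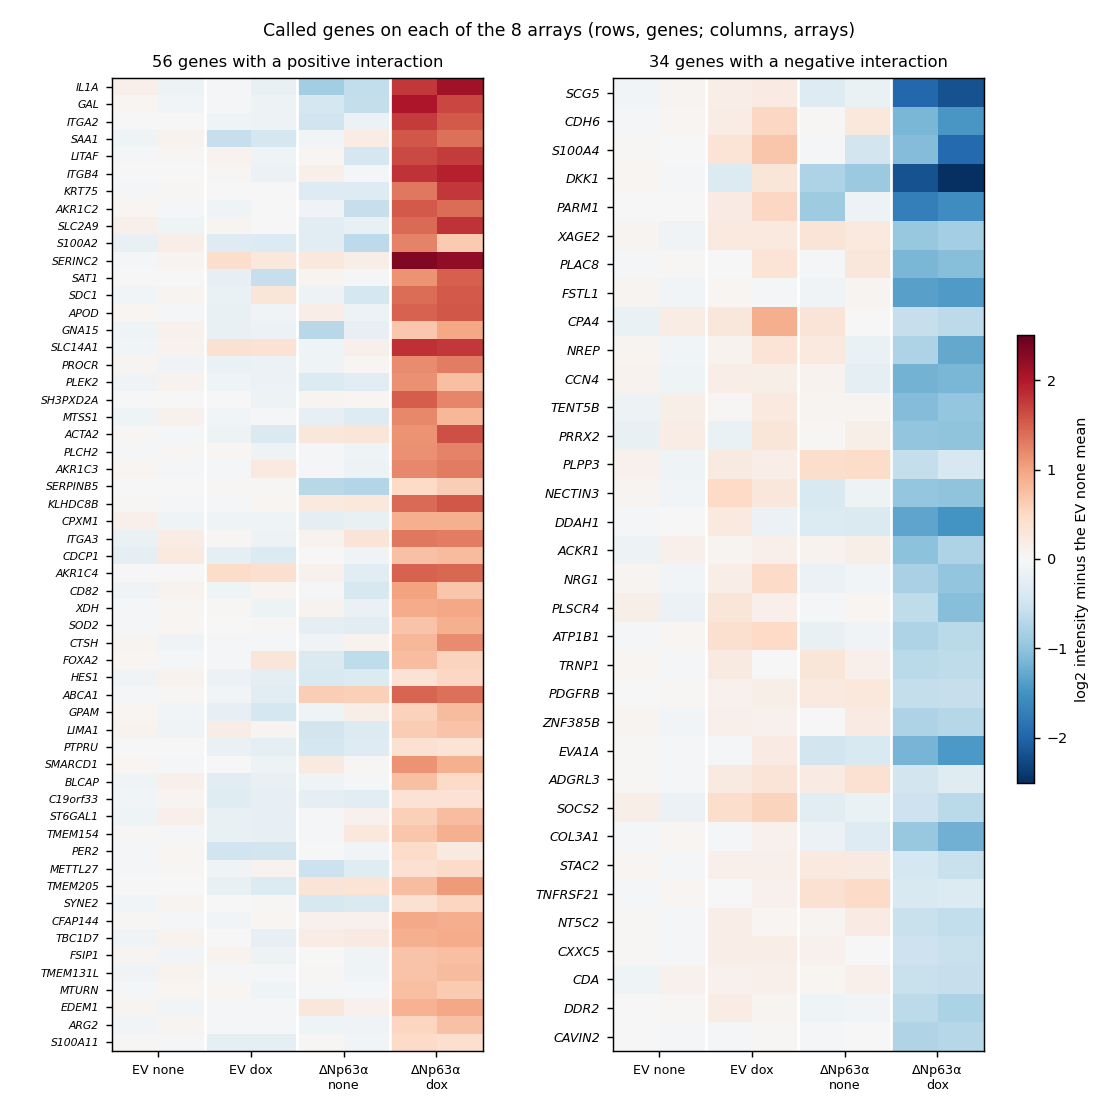
Log2 intensity of the 56 positive (left) and 34 negative (right) genes on each of the 8 arrays (2 columns per group, replicate 1 then 2), relative to the gene's mean on EV none (red, higher; blue, lower). The colour changes mainly in the p63 dox columns. Some genes, such as SERPINB5, IL1A, DKK1, GAL and PARM1, are also lower in the p63 none columns, and ABCA1 is higher there.

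Outside the rule that chose the genes above, 36 positive and 17 negative genes were called, and they are listed after their values were seen. The positive ones with a known place at the cell surface or in adhesion and the cytoskeleton were SDC1 (1.68, a proteoglycan of epithelial cells), PROCR (1.40, the protein C receptor), PLEK2 (1.38), SH3PXD2A (1.36, an invadopodium scaffold), MTSS1 (1.34), CDCP1 (1.11), CD82 (1.07, a tetraspanin), LIMA1 (0.96, an actin cross-linker), PTPRU (0.95), SYNE2 (0.84) and S100A11 (0.70). Signalling and transcription held GNA15 (1.43), PLCH2 (1.30, a phospholipase C), FOXA2 (1.03) and SMARCD1 (0.95). Enzymes and transporters held APOD (1.62, a lipid carrier), SLC14A1 (1.40, a urea transporter), CPXM1 (1.20), AKR1C4 (1.11), XDH (1.04, xanthine dehydrogenase), CTSH (1.03, a lysosomal protease), GPAM (0.98), ST6GAL1 (0.87), ARG2 (0.76) and EDEM1 (0.76).

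The others were KLHDC8B (1.22), BLCAP (0.91), C19orf33 (0.87), TMEM154 (0.86), METTL27 (0.85), TMEM205 (0.84), CFAP144 (0.83), TBC1D7 (0.81), FSIP1 (0.81), TMEM131L (0.81) and MTURN (0.76). APOD and XDH were below background in both empty-vector groups, so their empty-vector differences had no measured size. The negative ones at the cell surface were NECTIN3 (-1.12, a cell adhesion molecule), ACKR1 (-1.10, a chemokine scavenger), PLSCR4 (-1.07), ATP1B1 (-1.05, a sodium pump subunit), ADGRL3 (-0.94), DDR2 (-0.76, a collagen receptor) and CAVIN2 (-0.71, a caveolar protein). The growth factor NRG1 (-1.10) and the collagen COL3A1 (-0.87) were secreted products. The rest were DDAH1 (-1.11), TRNP1 (-0.97), EVA1A (-0.95), ZNF385B (-0.95), STAC2 (-0.85), NT5C2 (-0.82), CDA (-0.76) and CXXC5 (-0.76), with STAC2 below background on both induced arrays. Of all 90 genes, 29 had another probe above background, and 34 of those 36 probes had the sign of the main probe, but 19 of the 36 reached at least 50% of its size.

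Lists tied to doxycycline itself had 0 called genes. A response shared by both lines cancels in the interaction, so this count cannot show whether doxycycline acted on these lists. The mitochondrial ribosome list had a median of -0.02 over 33 measured genes, nuclear-encoded oxidative phosphorylation 0.05 over 30, and ATF4 and the integrated stress response, which respond to mitochondrial stress, -0.05 over 35. At an unadjusted p under 0.05 in the limma fit they had 2, 2 and 3 genes, near the 8.51% of all genes or below it. The doxycycline difference within the empty vector had medians of -0.02, 0.03 and -0.01 in these lists.

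The other lists without a call were ERK feedback and early response (21 measured, median 0.10, 5 with an unadjusted p under 0.05), proliferation (36, -0.19 and 7), glycolysis and hypoxia (32, -0.11 and 2), p53 targets (22, 0.01 and 3) and interferon response (28, 0.03 and 2), with limma as the tool throughout. In the proliferation list 27 of 36 values were below 0, with the cell-cycle factor E2F2 at -1.32 and the replication helicase subunit MCM3 at -0.95. The empty-vector difference in that list had a median of 0.14 and the ΔNp63α difference -0.07. The ERK phosphatase DUSP6 read 0.94 (adjusted p = 0.0727). Markers of luminal breast (6 measured, median 0.00), blood cells (8, -0.05) and endothelium (2, 0.07) also had 0 calls, with 0, 1 and 0 genes at an unadjusted p under 0.05.

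**Figure D5:**
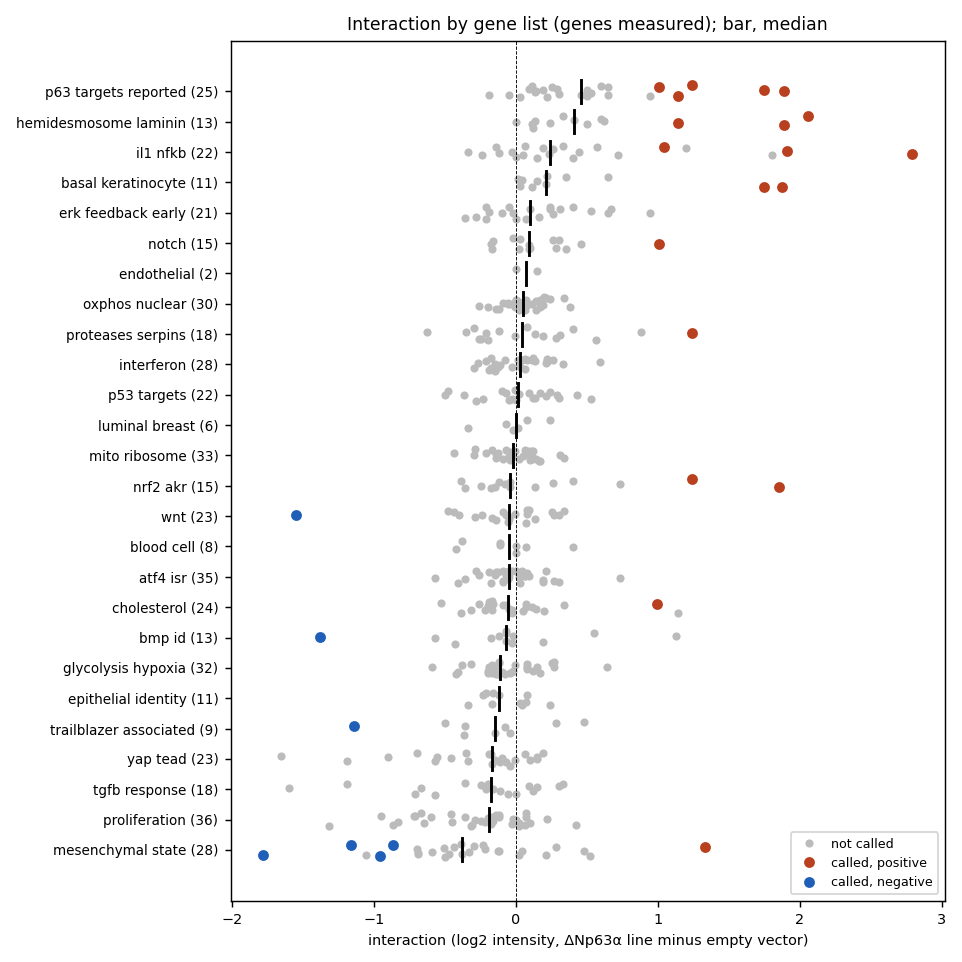
Interaction (log2 intensity) of every measured gene of the 26 lists, 1 row per list with the number measured in parentheses (points, genes; black bar, list median; coloured, adjusted p under 0.05; points are spread vertically for legibility). Medians run from -0.38 for the mesenchymal list to 0.46 for reported p63 targets.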

How the data were processed

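The 8 arrays were read from the deposited table of linear-scale probe intensities, made by the authors, with 47304 probes each. For software and normalisation, nothing is stated in the labels. The median (113.5), lowest value (89.2) and highest value (27456.4) were the same on each array, so the deposited values look quantile normalised without background subtraction. A further table with 16 columns of per-sample values was not used, because its column names match no sample label.

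Intensities were background corrected by normexp with an offset of 50 in limma 3.58.1 (R 4.3.3) and put on a log2 scale, which understates changes of dim genes. A probe was kept if some group had both arrays above 114.4, the mode of 106.9 plus 1.645 times 4.53, the SD of the values below it. This kept 23086 probes. The brightest kept probe of each gene gave 12385 genes, named from the platform annotation (30105 probes with 1 symbol, 8 with several, 17191 unnamed here). The limma model held the 4 group means (4 residual and 7.48 prior degrees of freedom), with Benjamini-Hochberg adjustment over all genes, two-sided. The number of arrays limits the precision.

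Named genes were the 12 largest called interactions per direction, up to 3 called genes per direction of each of 26 gene lists, the 6 largest differences in the ΔNp63α line without an interaction call, the 4 largest interactions not called, the 4 called with the largest opposite empty-vector difference and the 3 largest of each arrangement of groups. Other list members are examples. The comparison, the lists and these rules were chosen with earlier results of these data known. The fit was tested on simulated data.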

Additional observations from a re-analysis of the deposited data

Results flagged for a closer look

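The doxycycline effects of the ΔNp63α and empty-vector lines differed by the test of the interaction itself (limma, adjusted p under 0.05) for 37 named genes, given here with the interaction on the log2 scale. The doxycycline difference was higher in the ΔNp63α line for IL1A (2.79), GAL (2.44), ITGA2 (2.06), LITAF (1.91), SAA1 (1.91), ITGB4 (1.89), KRT75 (1.87), AKR1C2 (1.85), SLC2A9 (1.80), S100A2 (1.75), SERINC2 (1.72), SAT1 (1.70), ACTA2 (1.33), AKR1C3 (1.24), SERPINB5 (1.24), ITGA3 (1.14), SOD2 (1.04), HES1 (1.01), ABCA1 (0.99) and PER2 (0.85). It was lower there for SCG5 (-2.02), CDH6 (-1.80), S100A4 (-1.78), DKK1 (-1.55), PARM1 (-1.48), XAGE2 (-1.43), PLAC8 (-1.40), FSTL1 (-1.38), CPA4 (-1.37), NREP (-1.29), TENT5B (-1.24), CCN4 (-1.24), PRRX2 (-1.16), PLPP3 (-1.14), PDGFRB (-0.96), SOCS2 (-0.87) and TNFRSF21 (-0.85). With 2 arrays per group, no array was tested as an outlier of its group.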

How the results depend on the processing

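Of 37 named genes with a called interaction, 19 kept the call under all 17 settings run per gene (9 other processing settings and 8 left-out arrays), and 0 of 44 named genes changed sign. The number called was 59 with no background correction (58 shared with the 90), 155 with the replicate block (90 shared) and 156 at an adjusted p under 0.10, and it ranged from 33 to 96 when 1 array was left out. Within the ΔNp63α line it was 514 at an adjusted p under 0.10 and ranged from 122 to 340 when 1 array was left out, and within the empty vector it was 0 under all of these. Same-numbered replicates of different groups had deviations that correlated at 0.04 to 0.43 across genes, and the labels do not say what the numbers share, so they were not taken as pairs. With the block the 6 genes CXCL8 (limma adjusted p = 0.0339), FEZ1 (0.00324), CCN1 (0.00441), FAM13B (0.00967), ID1 (0.00290) and IL1B (0.00843) were called as well. Without background correction calls were lost for S100A4 (-1.75), DKK1 (-1.36), NREP (-1.23), CPA4 (-1.19), PARM1 (-1.17), PRRX2 (-0.96), SOCS2 (-0.82) and S100A2 (1.38). With an offset of 16 they were lost for SOCS2 (-0.92), TNFRSF21 (-0.89) and PER2 (0.91), and IL1B was gained (1.83). With the mean of the kept probes they were lost for S100A4 (-1.59), DKK1 (-0.83), CCN4 (-0.79), SOCS2 (-0.69) and PLPP3 (-0.67), and FEZ1 was gained (1.15). The most variable probe lost PRRX2 (adjusted p = 0.0504) and SOCS2 (0.0530), and a trended robust prior lost S100A4 (0.0858) and gained IL1B (0.0266), which array weights (0.0438) and no filter (0.0471) also gained. The cause of these changes was not tested. Centring arrays on the median changed 0 of the 90 calls. Of 442 recomputed list medians, 361 moved by less than the SD between arrays. The mesenchymal median ran from -0.52 to -0.23 and the IL-1 and NF-κB median from 0.15 to 0.38. The hemidesmosome median ran from 0.30 to 0.55, the p63 target median from 0.27 to 0.52 and the basal keratinocyte median from 0.04 to 0.34. Except for the hemidesmosome list, the smallest of these medians in size came with no filter on dim probes.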
